A study of Homo sapiens with 24 samples.

Results

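MCM2 to MCM7 and GINS1 to GINS4 encode the MCM ring and the GINS complex of the replicative helicase, and their mRNA levels were followed across 8 groups of BT-474 cells. With earlier results of these data known, these 10 genes, of 19775 genes with a probe set of their own, were taken by name. For each, the probe set annotated to that gene alone with the highest mean over all 24 arrays was used. All 10 passed the filter on low levels, as 14335 genes did, and GINS4 was the dimmest, with a log2 level of at least 5 on 21 of 24 arrays.

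BT-474 is an established cell line from a human breast carcinoma. It carries extra copies of ERBB2, the gene of the receptor tyrosine kinase HER2, and it has an estrogen receptor. Cells had received control siRNA or siRNA against HER2 and were then given 10 nM estrogen, or vehicle of 0.001% ethanol, for 4 or 24 h. Each of the 8 combinations had 3 arrays, and all came from this 1 line. The title of the series ties the study to HER2, to proliferation with DNA anabolism, to SRC-3 phosphorylation and to genes under E2F1, so the comparisons ask how the helicase genes stood after HER2 siRNA, after estrogen and after both.

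During G1, the origin recognition complex, CDC6 and CDT1 load the MCM proteins as rings around DNA, where they stay inactive. At the start of S phase, kinases promote the joining of CDC45 and GINS to the ring, and the resulting CDC45-MCM-GINS complex unwinds DNA ahead of the polymerases. Transcription of many of these genes is known to rise as cells leave quiescence, through E2F transcription factors, and MCM proteins serve as markers of proliferating cells in breast tumours.

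The targeted gene followed its label. ERBB2 lay between 11.86 and 12.69 on the 12 HER2 siRNA arrays and between 13.39 and 13.94 on the 12 control siRNA arrays (log2 level, the log2 of the RMA intensity, where a difference of 1 is 2-fold), and averaged over the 4 conditions it differed by -1.34 ± 0.06 (SE). By condition it differed by -1.56 with vehicle and -1.35 with estrogen at 4 h, and by -1.34 and -1.09 at 24 h, and estrogen at 24 h lowered ERBB2 itself with control siRNA (-0.46, limma adjusted p = 0.0077). The 9 luminal breast markers, which include ERBB2 and the keratins KRT8 and KRT18, had a mean log2 level per array of 12.14 to 12.44 with control siRNA and 11.98 to 12.24 with HER2 siRNA, and the estrogen receptor gene ESR1 lay between 8.60 and 9.62. Averaged over conditions, ERBB2, KRT8, KRT18 and KRT19 fell and GATA3 (0.53) and CDH1 (0.09) rose, and estrogen at 24 h with control siRNA lowered GATA3 (-0.95), FOXA1 (-0.40) and ERBB2. The 12 markers of fibroblasts, leukocytes and endothelial cells had 5.08 to 5.20 and 5.09 to 5.26, and 7 of them passed the filter. Among these the lysozyme gene LYZ (1.08) and the collagen gene COL1A1 (0.35) rose with HER2 siRNA and the endothelial gene VWF fell (-0.32). The list was not uniformly dim, as COL1A1 lay between 8.93 and 10.02 and VWF between 6.61 and 7.80. The leukocyte gene PTPRC, between 3.47 and 4.06, and the endothelial gene CDH5, between 3.24 and 3.83, did not pass the filter. The part of these shifts in the results was not tested. Arrays of 1 group correlated at 0.991 to 0.997. The labels do not say that replicates were separate cultures, so each p-value is set against array-to-array spread alone, which may be technical.

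All 10 helicase genes fell after HER2 siRNA. Averaged over the 4 conditions, the log2 differences ranged from -0.70 to -1.80 with a median of -1.18, against a median of -0.00 over all genes tested, and 29.1% of all genes tested were called lower (limma, adjusted p under 0.05). For 9 of the 10 genes the highest HER2 siRNA array lay under the lowest control siRNA array, a pattern that 8.69% of all genes showed, and GINS4 was the exception. In bulk RNA, fewer cells with these transcripts and less transcript per cell cannot be told apart.

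GINS2, a core subunit of the GINS complex, showed the largest fall by its brightest probe set. With vehicle at 4 h its log2 level was 8.95, 9.01 and 9.15 on the control siRNA arrays and 7.18, 7.02 and 7.19 on the HER2 siRNA arrays. With estrogen at 24 h it was 9.53, 9.42 and 9.44 against 7.58, 7.84 and 7.80. The lowest control siRNA array of all conditions, at 8.83, stood clear of the highest HER2 siRNA array, at 7.84. The averaged difference was -1.80 ± 0.04 (SE; limma adjusted p = 3.42e-18), which left 28.8% of the control level (95% interval 27.1 to 30.6%). With the mean of its probe sets the difference was -0.74, and MCM6, at -1.43, then showed the largest fall.

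By their brightest probe sets, MCM5 and MCM6 fell most within the ring. MCM5, which with MCM2 forms the gate through which DNA enters the ring, ranged from 8.93 to 9.78 with control siRNA (median 9.40, 12 arrays) and from 7.73 to 8.41 with HER2 siRNA (median 7.90, 12 arrays). Its averaged difference was -1.43 ± 0.05 (limma adjusted p = 2.89e-16). The other MCM5 probe set differed by -1.04, less than the brightest of MCM2 (-1.23) and MCM3 (-1.21). MCM6, part of the ring's ATPase core with MCM4 and MCM7, ranged from 10.39 to 11.28 with control siRNA and from 9.13 to 9.96 with HER2 siRNA, and differed by -1.42 ± 0.04 (limma adjusted p = 6.05e-17). HER2 siRNA left 37% of the control level of MCM5 and 37.4% of that of MCM6. The arrays of the 2 siRNAs did not overlap for either gene.

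By their brightest probe sets, the other subunits fell less. MCM2, which also binds histones ahead of the fork, differed by -1.23 ± 0.05, and MCM3, a neighbour of MCM5 in the ring, by -1.21 ± 0.05. MCM7, the subunit that is tagged with ubiquitin when the helicase is taken off DNA, differed by -1.03 ± 0.05. GINS1, through which GINS contacts DNA polymerase epsilon, differed by -1.16 ± 0.05 and GINS3 by -1.11 ± 0.06. The 2 smallest falls by these probe sets were those of MCM4 (-0.70 ± 0.04) and GINS4 (-0.89 ± 0.11), the latter near the filter. Other probe sets of MCM4 differed by -0.10 to -0.94, and another of GINS4 by -0.58. The other probe set of GINS3, with a mean log2 level of 6.59 against 6.71, differed by -1.40. The places of MCM4, GINS3 and GINS4 in the order thus depend on the probe set.

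MCM4 had a narrow spread and GINS4 a wide one. MCM4 ranged from 8.69 to 9.41 on the control siRNA arrays and from 8.25 to 8.60 on the HER2 siRNA arrays, which did not overlap, and HER2 siRNA left 61.5% of its control level. GINS4 ranged from 5.26 to 6.51 with control siRNA and from 4.58 to 5.53 with HER2 siRNA, so the arrays overlapped. Its SD within groups was 0.30, against 0.07 to 0.16 for the other 9 genes.

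**Figure D1:**
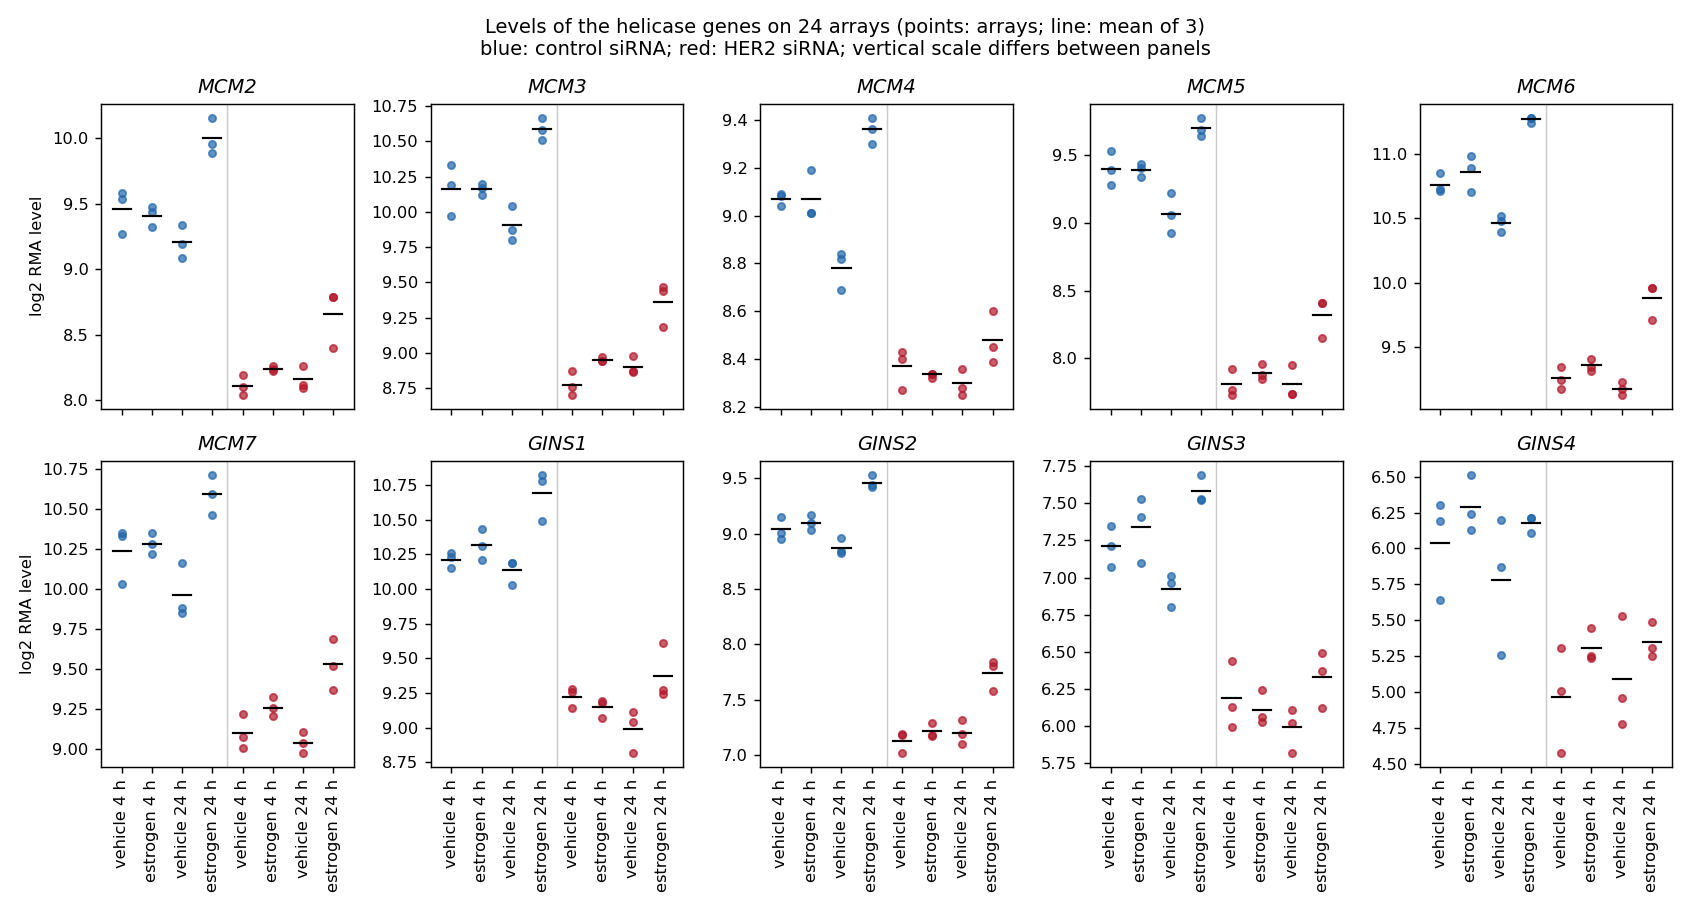
Log2 RMA level of each of the 10 helicase genes (vertical axis, its own scale in each panel) in the 8 groups (horizontal axis); points are arrays, lines are means of 3, blue is control siRNA and red is HER2 siRNA. The red points lie under the blue points in 9 panels, GINS4 being the exception, and within each colour the estrogen 24 h group is highest in every panel except for control siRNA in the GINS4 panel.

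Other probe sets of the same genes gave a check within the array. Of the probe sets that were not the brightest and passed the filter, 8 fell in the averaged comparison: -0.67, -0.90 and -0.94 for MCM4, -1.04 for MCM5, -1.44 for MCM6, -0.90 for MCM7, -1.40 for GINS3 and -0.58 for GINS4. A further probe set of MCM4 (-0.10 ± 0.06, adjusted p = 0.124) and 1 of GINS2 (-0.09 ± 0.05, adjusted p = 0.104) did not pass in limma. The GINS2 probe set had a mean log2 level of 5.90, against 8.22 for the brightest. Another GINS2 probe set, with a mean level of 4.25, did not pass the filter but enters the mean of probe sets. Averaging all probe sets of a gene gave GINS2 a difference of -0.74 in place of -1.80, and it still passed.

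A measure of 3' bias in the labelled RNA differed between the siRNAs. The log2 difference between the 3' and 5' GAPDH control probe sets averaged 0.443 ± 0.060 on HER2 siRNA arrays (SD, n = 12). On control siRNA arrays it averaged 0.305 ± 0.066 (SD, n = 12), and the 2 sets differed (permutation test, 2-sided, p = 0.00014). That test shuffled all arrays freely, without regard to group or replicate number, so it took them as independent. With the GAPDH difference as a covariate in limma, all 10 helicase genes still passed as lower, and GINS2 differed by -1.77. The further part of the 3' bias in the results was not tested.

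The promoters of the genes that fell together are shown because the series title names E2F1. In the RefSeq promoter table used here (GRCh38.p14, windows of 300 bases, 250 before and 50 after the annotated start), 7 of the 10 genes matched: MCM2, MCM3, MCM6, MCM7, GINS1, GINS2 and GINS3. The promoters of MCM4, MCM5 and GINS4 were not analysed here. The letters TTTCCCGC, TTTGGCGC, TTTCGCGC and TTTGCCGC, which follow the known E2F binding sequence, were searched on both strands. At least 1 occurred in a window of each of these 7 genes, against 3.31% of the 35116 windows of all genes. MCM7 had 3 windows, of which 1 held a match. The windows lie at MCM2 chr3:127598161-127598460 (plus strand), MCM3 chr6:52284693-52284992 (minus strand), MCM6 chr2:135876394-135876693 (minus strand), MCM7 chr7:100101348-100101647 (minus strand), GINS1 chr20:25407423-25407722 (plus strand), GINS2 chr16:85688905-85689204 (minus strand) and GINS3 chr16:58392221-58392520 (plus strand). Each runs 5′ to 3′ in the direction of its gene, with E2F letters in capitals.
MCM2: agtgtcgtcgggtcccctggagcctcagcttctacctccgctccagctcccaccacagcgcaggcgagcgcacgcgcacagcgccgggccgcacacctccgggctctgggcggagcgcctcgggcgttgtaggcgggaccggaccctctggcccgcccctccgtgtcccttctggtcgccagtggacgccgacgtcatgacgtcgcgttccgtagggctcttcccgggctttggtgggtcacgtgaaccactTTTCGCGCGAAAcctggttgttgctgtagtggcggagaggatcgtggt
MCM3: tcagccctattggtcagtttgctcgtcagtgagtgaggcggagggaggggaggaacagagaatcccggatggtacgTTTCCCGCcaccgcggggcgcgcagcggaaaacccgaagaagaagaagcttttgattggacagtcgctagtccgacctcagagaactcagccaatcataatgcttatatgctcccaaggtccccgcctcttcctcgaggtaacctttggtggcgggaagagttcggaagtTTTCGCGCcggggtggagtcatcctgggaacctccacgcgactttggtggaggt
MCM6: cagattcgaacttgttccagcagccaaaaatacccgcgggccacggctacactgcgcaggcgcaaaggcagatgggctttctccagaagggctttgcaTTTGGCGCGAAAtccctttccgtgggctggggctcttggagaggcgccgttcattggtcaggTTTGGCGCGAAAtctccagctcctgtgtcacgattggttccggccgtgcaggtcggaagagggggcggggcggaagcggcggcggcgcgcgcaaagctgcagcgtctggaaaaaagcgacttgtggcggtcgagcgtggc
MCM7: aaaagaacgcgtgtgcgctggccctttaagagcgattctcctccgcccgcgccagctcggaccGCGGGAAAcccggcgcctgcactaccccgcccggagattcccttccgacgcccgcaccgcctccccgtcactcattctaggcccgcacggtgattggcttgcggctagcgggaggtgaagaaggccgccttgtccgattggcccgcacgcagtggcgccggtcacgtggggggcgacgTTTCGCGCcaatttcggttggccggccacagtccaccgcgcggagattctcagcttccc
GINS1: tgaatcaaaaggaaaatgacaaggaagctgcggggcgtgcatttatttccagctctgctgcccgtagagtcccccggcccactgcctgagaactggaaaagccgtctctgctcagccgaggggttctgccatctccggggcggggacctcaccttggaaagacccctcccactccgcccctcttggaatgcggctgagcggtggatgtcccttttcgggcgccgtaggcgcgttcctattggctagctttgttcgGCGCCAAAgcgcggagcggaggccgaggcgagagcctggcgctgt
GINS2: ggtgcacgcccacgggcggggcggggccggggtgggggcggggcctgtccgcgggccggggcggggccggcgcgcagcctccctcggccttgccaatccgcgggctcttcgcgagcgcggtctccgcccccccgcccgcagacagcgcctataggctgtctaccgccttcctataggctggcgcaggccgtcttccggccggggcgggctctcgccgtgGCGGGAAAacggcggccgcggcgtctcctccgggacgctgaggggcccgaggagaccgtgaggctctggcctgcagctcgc
GINS3: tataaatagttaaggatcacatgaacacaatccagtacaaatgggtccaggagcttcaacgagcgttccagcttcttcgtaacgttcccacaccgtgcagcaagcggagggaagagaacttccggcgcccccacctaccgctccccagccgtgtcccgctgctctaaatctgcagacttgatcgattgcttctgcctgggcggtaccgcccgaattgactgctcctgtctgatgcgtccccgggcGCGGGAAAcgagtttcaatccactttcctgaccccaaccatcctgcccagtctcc

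MCM6 held the stretch TTTGGCGCGAAA at 152 and again at 90 bases before its start, where TTTGGCGC on one strand overlaps TTTCGCGC on the other. In MCM2 a stretch of the same length, TTTCGCGCGAAA, lay just after the start and reads the same on both strands. MCM3 and MCM7 held matches 174 and 187 bases before the start, and each also had TTTCGCGC close to it, at 4 and 9 bases before. GINS2 and GINS3 held GCGGGAAA, the reverse strand of TTTCCCGC, at 31 and 5 bases before the start, and GINS1 held GCGCCAAA just after it. The letters CCAAT, bound by NF-Y, were in windows of 5 of the 7 genes and of 34.6% of all windows, and the GC box GGGCGG in those of 6 and of 45%. These are matches of letters in fixed windows, letters of different motifs may share bases, and binding was not measured.

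HER2 siRNA lowered all 10 genes in each of the 4 conditions. The share of all genes called lower by limma was 17.8% for vehicle and 17.3% for estrogen at the 4 h time, and 21.8% and 20.5% at 24 h. The median of the 10 differences was -1.24, -1.19, -1.03 and -1.29 in that order. Arrays of the 2 siRNAs did not overlap for any of the 10 genes in 3 of these conditions, and for 9 with vehicle at 24 h, where GINS4 overlapped. Such a separation downward was seen for 22.2% of all genes with either treatment at 4 h, and for 25.4% and 24.9% at 24 h with vehicle and estrogen.

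By gene, GINS2 with vehicle differed by -1.91 ± 0.08 after 4 h and by -1.67 ± 0.08 after 24 h, or by -0.81 and -0.73 with the mean of its probe sets. MCM6 differed by -1.50 ± 0.08 at 4 h and -1.28 ± 0.08 at 24 h with vehicle, and by -1.50 ± 0.08 and -1.39 ± 0.08 with estrogen. MCM4 at 24 h differed by -0.49 ± 0.07 with vehicle and by -0.88 ± 0.07 with estrogen. The fall was smallest with vehicle at 24 h for MCM4, as for every other gene except GINS1. The control siRNA group of that condition, with MCM4 arrays at 8.69, 8.82 and 8.84, was the lowest control siRNA group for all 10 genes. Its level enters the difference itself, so the 2 observations are not independent. GINS4 with vehicle at 24 h had the weakest call, -0.69 ± 0.22 (limma adjusted p = 0.0147). On its control siRNA arrays the level was 5.26, 5.87 and 6.20, and on its HER2 siRNA arrays 4.78, 5.53 and 4.96. This call ended with array weights (adjusted p = 0.0522), with only the 2 groups in the fit (0.0645) and without any 1 of 4 arrays, the highest adjusted p being 0.107 without control siRNA vehicle 24 h replicate 3.

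**Figure D2:**
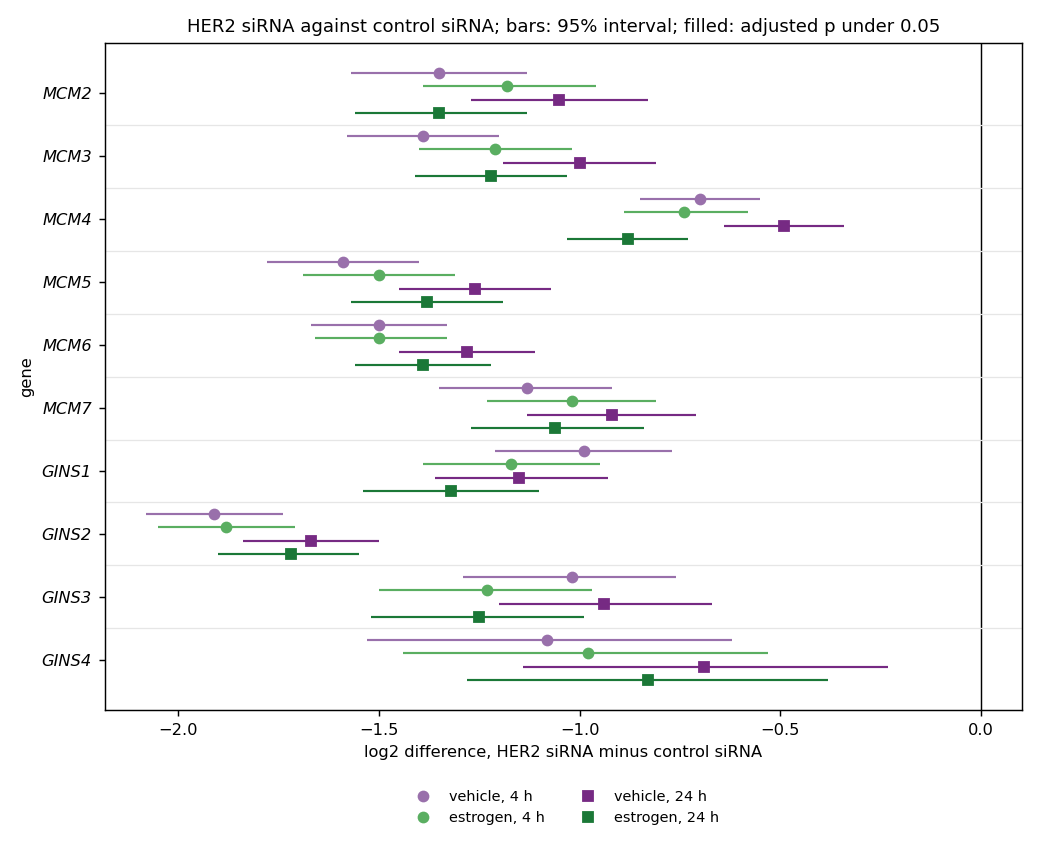
Log2 difference between HER2 siRNA and control siRNA (horizontal axis) for the 10 helicase genes (vertical axis) in the 4 conditions; bars are 95% intervals from limma and filled symbols passed at an adjusted p of 0.05. All 40 symbols are filled and lie left of 0, with GINS2 farthest left, from -1.91 to -1.67, and MCM4 nearest to 0, at -0.49 with vehicle at 24 h.

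The size of the siRNA effect was also compared between times. Averaged over treatments, the effect at 24 h minus that at 4 h ranged from -0.15 to 0.27 over the 10 genes, and 0 of 10 passed in limma, where 2.95% of all genes did. At an unadjusted p under 0.05 there were 2, MCM5 (0.23 ± 0.09, 95% interval 0.03 to 0.42) and GINS2 (0.20 ± 0.08, interval 0.03 to 0.37), for which the fall was nominally smaller at 24 h.

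Estrogen for 4 h gave no call among the helicase genes. With control siRNA, differences ranged from -0.05 to 0.25, 0 of 10 passed in limma (all adjusted p = 1) and 0 had an unadjusted p under 0.05, while 0.342% of all genes passed. MCM6 stood at 10.73, 10.71 and 10.85 with vehicle and at 10.70, 10.98 and 10.89 with estrogen, so the arrays overlapped, and its difference was 0.09 ± 0.08 (interval -0.07 to 0.26). With HER2 siRNA, differences ranged from -0.08 to 0.35, again 0 of 10 passed and 0 had an unadjusted p under 0.05, against 0.698% of all genes. For MCM2 and MCM3 the HER2 siRNA arrays with estrogen at 4 h all lay above those with vehicle, by 0.13 ± 0.11 and 0.17 ± 0.09 (adjusted p = 0.829 and 0.712), and 6.58% of all genes showed such a separation upward.

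Estrogen for 24 h raised 9 of the 10 genes with control siRNA. In this comparison 7.01% of all genes were called higher in limma. The median difference of the 10 was 0.63, against -0.01 over all genes tested. The arrays of the 2 groups did not overlap for the 9 genes that rose, a separation that 14.5% of all genes showed upward.

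MCM6 and MCM2 rose most. MCM6 stood at 10.48, 10.52 and 10.39 with vehicle and at 11.28, 11.24 and 11.28 with estrogen, a difference of 0.81 ± 0.08 (limma adjusted p = 9.74e-07) or 1.75-fold. MCM2 stood at 9.09, 9.34 and 9.19 with vehicle and at 9.89, 9.96 and 10.16 with estrogen, a difference of 0.80 ± 0.11 (limma adjusted p = 2.32e-05). For both genes every estrogen array was above every vehicle array. MCM3 (0.68 ± 0.09), MCM5 (0.63 ± 0.09), MCM7 (0.63 ± 0.10) and MCM4 (0.58 ± 0.07) rose too, so the mRNA of every ring gene was higher.

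Among the GINS genes, GINS3 rose by 0.66 ± 0.13, GINS2 by 0.59 ± 0.08 and GINS1 by 0.55 ± 0.10. GINS4 differed by 0.40 ± 0.22 (limma adjusted p = 0.257), with an interval from -0.05 to 0.85 that includes the sizes seen for the other GINS genes. Its vehicle arrays read 5.26, 5.87 and 6.20 and its estrogen arrays 6.11, 6.21 and 6.21, and they overlapped. A dimmer probe set of GINS4, with a mean log2 level of 4.87, rose by 0.63 ± 0.16 (adjusted p = 0.0168 among all probe sets). The GINS2 call ended when its probe sets were averaged (0.23, adjusted p = 0.0567).

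With HER2 siRNA, estrogen for 24 h raised 7 of the 10 genes. Here 4.28% of all genes were called higher in limma, and the median difference of the 10 was 0.47. MCM6 stood at 9.18, 9.23 and 9.13 with vehicle and at 9.71, 9.96 and 9.96 with estrogen, a difference of 0.70 ± 0.08 (limma adjusted p = 4.4e-06). GINS2 stood at 7.10, 7.32 and 7.19 with vehicle and at 7.58, 7.84 and 7.80 with estrogen, a difference of 0.54 ± 0.08 (limma adjusted p = 0.000173), or 0.28 with the mean of its probe sets, which also passed. In both genes all estrogen arrays exceeded all vehicle arrays, as they did for 9 of the 10 genes and for 11.5% of all genes.

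MCM5 (0.51 ± 0.09), MCM2 (0.50 ± 0.11), MCM7 (0.49 ± 0.10), MCM3 (0.46 ± 0.09) and GINS1 (0.38 ± 0.10) also rose. MCM4 (0.18 ± 0.07, adjusted p = 0.175), GINS3 (0.34 ± 0.13, adjusted p = 0.14) and GINS4 (0.26 ± 0.22, adjusted p = 0.689) did not pass in limma. GINS3 passed with the mean of its probe sets (0.41, adjusted p = 0.0393), and its other probe set, of a mean level of 6.59 against 6.71, rose by 0.47 (adjusted p = 0.0325 among all probe sets). MCM4 stood at 8.25, 8.28 and 8.36 with vehicle and 8.39, 8.45 and 8.60 with estrogen, without overlap. When the fit held only these 2 groups, 4 genes passed, and the calls of MCM2 (adjusted p = 0.0761), MCM3 (0.0503) and GINS1 (0.193) ended. The GINS1 call also ended without HER2 siRNA vehicle 24 h replicate 1 or 2 or estrogen 24 h replicate 3 (highest adjusted p 0.216).

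**Figure D3:**
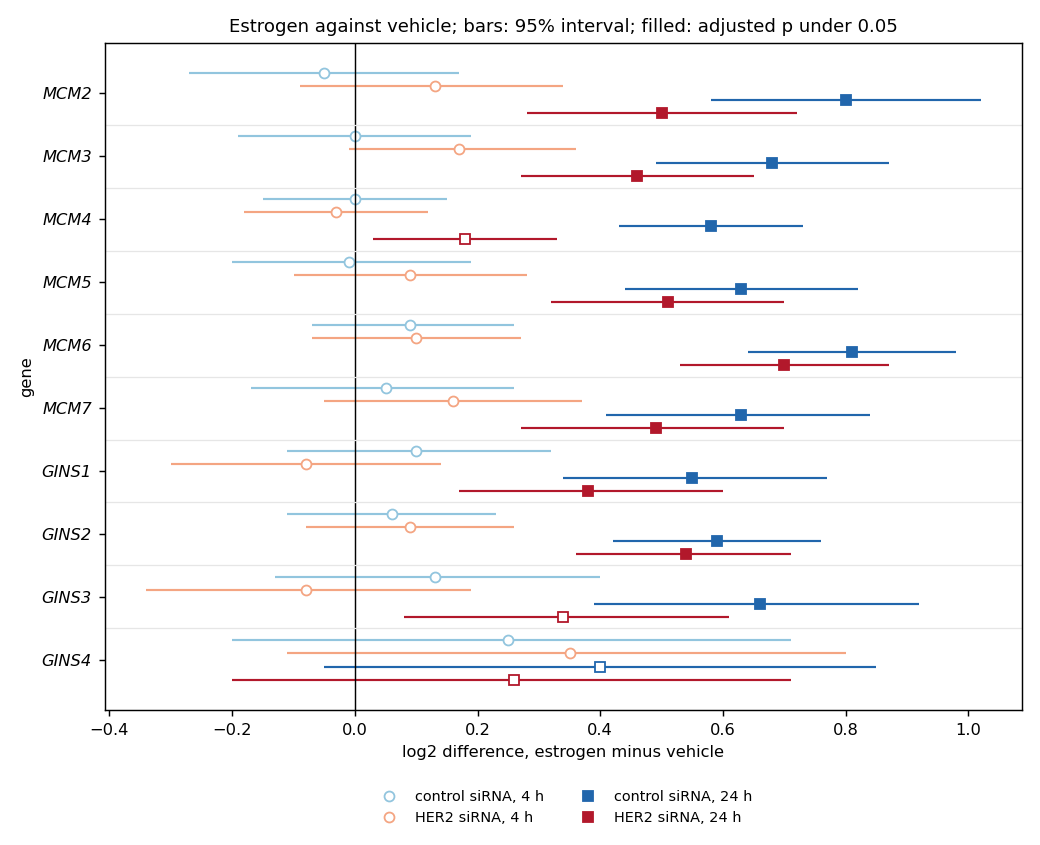
Log2 difference between estrogen and vehicle (horizontal axis) for the 10 helicase genes (vertical axis) with each siRNA at each time; bars are 95% intervals from limma and filled symbols passed at an adjusted p of 0.05. The 4 h circles are all open and lie between -0.08 and 0.35; the 24 h squares are filled for 9 genes with control siRNA and for 7 with HER2 siRNA.

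The estrogen responses of the 2 siRNAs were also set against each other. At 24 h the response with HER2 siRNA minus that with control siRNA was below 0 for all 10 genes, from -0.05 for GINS2 to -0.39 for MCM4. The median was -0.16, against 0.02 over all genes tested. Most of these genes vary together across the same arrays, so their signs are not independent, and the share of all genes below 0 was not counted. In limma 0 of 10 passed, against 0.0628% of all genes, and 1 had an unadjusted p under 0.05. That gene was MCM4, at -0.39 ± 0.10 (interval -0.61 to -0.18, adjusted p = 0.252). The probe sets of MCM4 that passed the filter gave -0.36, -0.43, -0.27 and -0.33 besides. For MCM6 the difference was -0.11 ± 0.11, and its interval of -0.35 to 0.13 leaves room for a response that is weaker by up to 0.35 after HER2 siRNA. At 4 h the difference ranged from -0.21 to 0.18, and 0 of 10 genes passed or had an unadjusted p under 0.05, while limma called 0% of all genes.

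The estrogen response was larger at 24 h than at 4 h for part of the genes, mainly with control siRNA. With control siRNA the difference between the responses passed in limma for 6 of the 10 genes, all upward, against 0.677% of all genes called higher. These were MCM2 (0.85 ± 0.15), MCM6 (0.71 ± 0.11), MCM3 (0.68 ± 0.13), MCM5 (0.64 ± 0.13), MCM4 (0.58 ± 0.10) and GINS2 (0.53 ± 0.12), and MCM7 just missed the threshold (0.58 ± 0.15, adjusted p = 0.051). Changes between the times in both treatments enter these differences. Over the 10 genes with control siRNA, 24 h minus 4 h had a median of -0.27 with vehicle and 0.34 with estrogen. Without the 3 arrays whose labels carry running numbers apart from the rest, 3 genes passed. The GINS2 call ended without any 1 of 7 of the 12 control siRNA arrays (adjusted p 0.0552 to 0.0794) and with the mean of its probe sets (0.20, adjusted p = 0.518), with which the MCM5 call ended too (0.52, adjusted p = 0.0585). With HER2 siRNA only MCM6 passed (0.60 ± 0.11, adjusted p = 0.0124), against 0.398% of all genes called higher. An unadjusted p under 0.05 was found for 9 of the 10 genes, and the share of all genes at that threshold was not counted. The MCM6 call ended with the mean of its probe sets (adjusted p = 0.0828) and with only the groups compared (0.102). It also ended without HER2 siRNA estrogen 24 h replicate 3 (adjusted p = 0.055), and without replicate 1 of that group GINS2 passed too.

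Levels were also compared between 4 and 24 h within each treatment, comparisons that share groups with those above. With control siRNA and vehicle all 10 genes were lower at 24 h, by -0.08 for GINS1 to -0.33 for MCM5, but 0 of 10 passed in limma, against 0.781% of all genes. The median of the 10 was -0.27, against -0.00 over all genes tested. The arrays of 4 genes lay lower without overlap, as 10.4% of all genes did. An unadjusted p under 0.05 was found for 7 of the 10, and the share of all genes at that threshold was not counted. The lowest adjusted p was 0.0675, for MCM4 (-0.29 ± 0.07). With array weights MCM4, MCM5 and MCM6 passed as lower (adjusted p 0.0204 to 0.0493), and the stricter filter, at a log2 level of 7, called MCM4 and MCM6. With control siRNA and estrogen 6 of 10 rose, against 2.53% of all genes called higher, led by MCM2 (0.59 ± 0.11) and MCM3 (0.42 ± 0.09), and without control siRNA estrogen 4 h replicate 1 the count was 3. Arrays at 24 h lay above those at 4 h without overlap for 8 of the 10, and for 10.7% of all genes.

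With HER2 siRNA and vehicle 0 of 10 genes passed between the times, and differences ran from -0.23 for GINS1 to 0.13 for MCM3. In that comparison 6.46% of all genes passed in limma, and 1 of the 10 helicase genes, GINS1, had an unadjusted p under 0.05. Its arrays at 24 h, at 8.82, 9.04 and 9.11, lay under those at 4 h, as for 10.9% of all genes. With HER2 siRNA and estrogen 5 of 10 rose, against 3.06% of all genes called higher: MCM6 (0.52 ± 0.08), GINS2 (0.52 ± 0.08), MCM5 (0.43 ± 0.09), MCM2 (0.42 ± 0.11) and MCM3 (0.41 ± 0.09). Without HER2 siRNA estrogen 24 h replicate 3 the count was 3. The GINS2 calls between times ended with the mean of its probe sets (adjusted p = 0.224 with control siRNA and estrogen, 0.0744 with HER2 siRNA and estrogen). The arrays of 8 of the 10 genes lay higher at 24 h without overlap, as 10.8% of all genes did.

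The order of the 8 groups was much alike among the genes. It rests on the same group means as the differences above, and how many of all genes share such an order was not counted. All 4 control siRNA means lay above all 4 HER2 siRNA means for each of the 10 genes. Control siRNA with estrogen at 24 h was highest for 9 of them, GINS4 being highest with control siRNA and estrogen at 4 h, and control siRNA with vehicle at 24 h was the lowest control siRNA group for all 10. MCM6 ran from 11.27 ± 0.02 (SD, n = 3) with control siRNA and estrogen at 24 h through both 4 h groups, 10.86 ± 0.15 for estrogen and 10.76 ± 0.08 for vehicle, to 10.46 ± 0.07 for vehicle at 24 h. After HER2 siRNA the same order held: 9.88 ± 0.14 for estrogen at 24 h, 9.36 ± 0.04 for estrogen and 9.26 ± 0.08 for vehicle after 4 h, and 9.18 ± 0.05 for vehicle after 24 h. Neighbours in this order whose arrays overlapped were the 2 control siRNA groups at 4 h and the 3 lowest HER2 siRNA groups.

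The combined treatment was set against control siRNA with vehicle at 24 h. With HER2 siRNA and estrogen, 9 of the 10 genes were below control siRNA with vehicle in limma, where 20% of all genes were called lower. The arrays of these 9 did not overlap, as those of 25.4% of all genes did not. The comparison shares the control siRNA vehicle group with the siRNA and estrogen effects at 24 h. For GINS2 the level with HER2 siRNA and estrogen stayed at 45.6% of control siRNA with vehicle (-1.13 ± 0.08, limma adjusted p = 1.4e-09), beside -1.67 ± 0.08 for HER2 siRNA with vehicle. The mean of its probe sets gave -0.45, which passed, and its dimmer probe set gave -0.09 (adjusted p = 0.514). For MCM6 the values were -0.58 ± 0.08 and -1.28 ± 0.08, and for MCM5 -0.75 ± 0.09 and -1.26 ± 0.09. MCM4 was nearest to the control siRNA level among the genes that passed, at -0.30 ± 0.07 beside -0.49 ± 0.07. GINS4 (-0.43 ± 0.22, interval -0.88 to 0.02, adjusted p = 0.13) did not pass, and it did without control siRNA vehicle 24 h replicate 1 (-0.69, adjusted p = 0.0169).

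**Figure D4:**
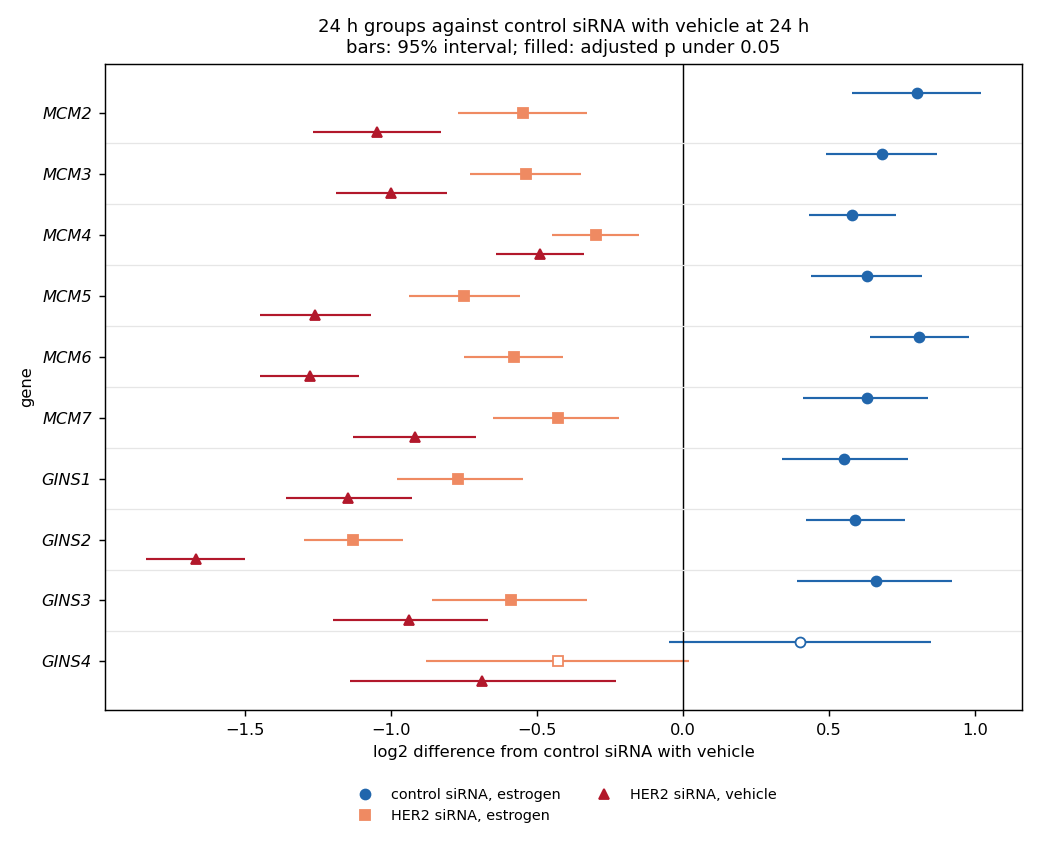
Log2 difference from control siRNA with vehicle at 24 h (horizontal axis) for the 10 helicase genes (vertical axis) in the other 3 groups at 24 h; bars are 95% intervals from limma, filled symbols passed at an adjusted p of 0.05, and the groups share the control arrays. Estrogen with control siRNA lies right of 0, and HER2 siRNA with estrogen lies left of 0 but nearer to it than HER2 siRNA with vehicle for every gene, as for GINS2 at -1.13 and -1.67.

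The genes that work with the helicase were described by a list of 16 partners and handling factors, all of which passed the filter. This list and the next were chosen with earlier results of these data known. After HER2 siRNA, averaged over conditions, 15 fell and 1 rose in limma, with a median of -0.99, where 29.1% of all genes were called lower and 30.1% higher. The largest falls were those of MCM10 (-2.51 ± 0.12), needed for helicase activation, POLE2 (-1.93 ± 0.07), a subunit of DNA polymerase epsilon, CDC45 (-1.78 ± 0.06), the third part of the active helicase, and LRR1 (-1.57 ± 0.05), which directs removal of the helicase at the end of replication. MCM3AP, an mRNA export factor named for its binding to MCM3, rose by 0.26 ± 0.04. With control siRNA, estrogen for 24 h raised 13 of the 16 and lowered 0, with a median of 0.44, against 7.01% of all genes called higher. The rises were led by POLE2 (0.96 ± 0.15), MCM10 (0.90 ± 0.23), CDC45 (0.85 ± 0.13) and WDHD1 (0.82 ± 0.17), which links the helicase to DNA polymerase alpha. With HER2 siRNA 6 of 16 rose at 24 h, against 4.28% of all genes, and MCM10 rose by 1.25 ± 0.23. At 4 h estrogen changed 0 of 16 with either siRNA in limma, and 1 with control siRNA and 2 with HER2 siRNA had an unadjusted p under 0.05.

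A second list held 17 genes of origin licensing and firing, of which 16 passed the filter and MTBP did not. Averaged over conditions 14 fell and 1 rose after HER2 siRNA, with a median of -1.06, beside the same 29.1% of all genes lower and 30.1% higher. The largest falls were those of the loading factors CDC6 (-2.11 ± 0.08) and CDT1 (-1.69 ± 0.07), the kinase gene CDC7 (-1.63 ± 0.05), whose product phosphorylates MCM proteins, and ORC6 (-1.46 ± 0.07) of the origin recognition complex. The other origin recognition genes, named here after their values were seen except for ORC4, were not alike. ORC1 fell by 1.09, ORC2, ORC3 and ORC5 fell by 0.18, 0.09 and 0.14, and ORC4 rose by 0.11 ± 0.04 (adjusted p = 0.0236). DBF4B differed by 0.12 ± 0.07 and did not pass (adjusted p = 0.151). Estrogen for 24 h raised 10 of 16 with control siRNA (7.01% of all genes), with a median of 0.48, led by CDC6 (0.78 ± 0.16), CDT1 (0.70 ± 0.14), ORC1 (0.63 ± 0.16) and TICRR (0.55 ± 0.12), which acts in the loading of CDC45. With HER2 siRNA 4 of 16 rose at 24 h (4.28% of all genes), and at 4 h 0 of 16 passed with either siRNA, where 1 gene in each had an unadjusted p under 0.05.

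**Figure D5:**
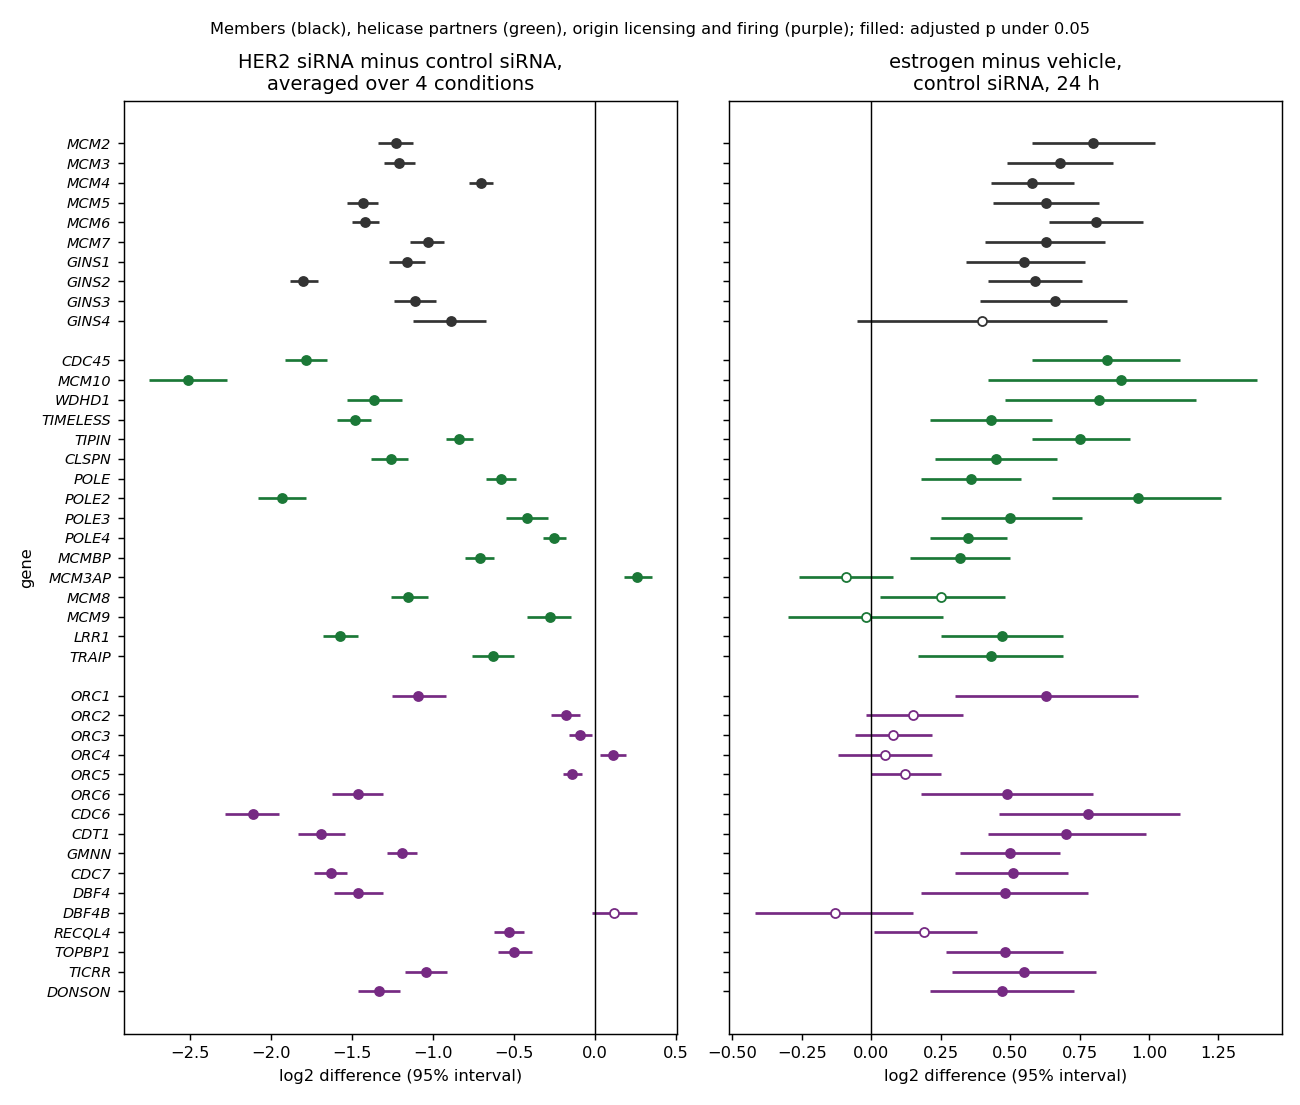
Log2 differences (horizontal axes) for the 10 helicase genes (black), 16 partners (green) and 16 tested licensing and firing genes (purple) on the vertical axis; the left panel gives HER2 siRNA minus control siRNA averaged over 4 conditions and the right panel estrogen minus vehicle with control siRNA at 24 h, with 95% intervals and filled symbols for an adjusted p under 0.05. MCM10 at -2.51 and CDC6 at -2.11 lie farthest left, and ORC2 to ORC5, DBF4B and MCM3AP lie near 0 in both panels.

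Within each siRNA, single genes were set against the mean of the other 9 across 12 arrays, which share 4 groups and so are not independent points. Pearson's r was 0.860 to 0.956 with control siRNA for all genes except GINS4 (0.505). With HER2 siRNA it was 0.917 to 0.972 for MCM2, MCM3, MCM5, MCM6, MCM7 and GINS2, and lower for MCM4 (0.720), GINS1 (0.694), GINS3 (0.623) and GINS4 (0.433). Outside the helicase, the 5 genes most like the mean of the 10 were ranked by the lower of their r over the 12 control and the 12 HER2 siRNA arrays. They were MTHFD1 (0.945), an enzyme of one-carbon folate metabolism, POLA2 (0.939), a subunit of DNA polymerase alpha, FARSB (0.938), a subunit of phenylalanyl-tRNA synthetase, RRM2 (0.931), a subunit of ribonucleotide reductase, and CDV3 (0.931).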

How the data were processed

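Total RNA of 24 BT-474 samples, 3 per group, was labelled by 3' in vitro transcription and hybridised to Affymetrix HG-U133 Plus 2.0 arrays, per the labels' protocols. The authors deposited log2 values made by RMA, per the submitters' processing notes, and the software version is not given in the sources used here. Array medians lay between 5.28 and 5.36. With 3 arrays a group, their number sets the precision.

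The array's 54675 probe sets comprise 41091 annotated to a single gene symbol, 1801 to more than 1, 11721 to none and 62 controls. Each gene was represented by its probe set with the highest mean. The 14335 genes with a log2 level of at least 5 on at least 3 arrays entered 1 fit of group means over all 24 arrays in limma 3.58.1 (R 4.3.3). Benjamini-Hochberg adjustment ran over these genes within each of 19 comparisons, with a threshold of 0.05, and comparisons of single probe sets were adjusted over all probe sets tested. Counts at an unadjusted p under 0.05 stand without the share of all genes, which was not counted. In simulated data, 98% of genes changed by 1 (log2) were recovered for estrogen with control siRNA at 24 h, and 72% of those changed by 0.5. The simulation changed 100 genes at each size and drew independent noise, whereas the real comparison called 13.5% of all genes. These rates may therefore differ from those on the real arrays.

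The named genes are the 10 helicase genes, ERBB2, up to 4 genes of each pathway list with the largest passing differences in the averaged siRNA effect and in the estrogen effect with control siRNA at 24 h, list genes that passed against their list's direction, and the 5 most alike genes. The members and lists were chosen with earlier results of these data known. One array, HER2 siRNA estrogen 4 h replicate 3, has 24 h in its source name but 4 h in its other labels and was placed at 4 h. Labels of 3 arrays of replicate 1 (HER2 siRNA estrogen 4 h, control siRNA vehicle 24 h and control siRNA estrogen 24 h) carry running numbers apart from the rest. Alternatives were other filters, scalings, array weights, an intensity trend, a mean of probe sets, the GAPDH covariate, a replicate block, fits of only the groups compared and the omission of arrays.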

Additional observations from a re-analysis of the deposited data

Results flagged for a closer look

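The estrogen response (log2 difference between estrogen and vehicle) differed between 24 h and 4 h by limma's test of the difference itself for 7 results. With control siRNA the response at 24 h exceeded that at 4 h by 0.85 for MCM2, 0.71 for MCM6, 0.68 for MCM3, 0.64 for MCM5, 0.58 for MCM4 and 0.53 for GINS2. The GINS2 call ended without any 1 of 7 control siRNA arrays (adjusted p 0.0552 to 0.0794). Without the 3 arrays numbered apart the calls of MCM3 (limma adjusted p = 0.0754), MCM5 (0.0797) and GINS2 (0.125) ended. With the mean of probe sets those of MCM5 (0.0585) and GINS2 (0.518) ended. With HER2 siRNA the response at 24 h exceeded that at 4 h by 0.60 for MCM6. This call ended with the mean of its probe sets (limma adjusted p = 0.0828) and with only the groups compared (0.102). It also ended without HER2 siRNA estrogen 24 h replicate 3 (0.055). Whether these excesses themselves differ between the siRNAs was not tested.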

How the results depend on the processing

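All 10 genes were still called lower after HER2 siRNA in the averaged comparison and in each condition under every alternative in which they were tested, with GINS4 as the exception with vehicle at 24 h; the stricter filter and the mean of probe sets each tested 9 of the 10. Estrogen for 24 h with control siRNA raised 8 to 9 genes over the alternatives. With HER2 siRNA it raised 4 when only the groups compared were fitted, 8 with the mean of probe sets and 6 to 7 when 1 array was left out. The difference of the siRNA effect between times passed for 1 gene, MCM5, with the replicate block and number series. The estrogen response at 24 h minus 4 h passed with control siRNA for 3 genes without the 3 arrays numbered apart, for 8 with the replicate block and for 5 to 7 with 1 array left out. With HER2 siRNA it passed for 3 with the replicate block and number series, 0 with the mean of probe sets, 0 with only the groups compared and 0 to 2 with 1 array left out. Between times, control siRNA with vehicle had 3 calls with the replicate block or array weights, 2 with the block and number series, the stricter filter or the mean of probe sets, and 1 after quantile normalisation. For HER2 siRNA with estrogen the count was 2 with only the groups compared and 3 to 5 with 1 array left out, and for control siRNA with estrogen it was 3 to 6, and 4 to 8 over the other alternatives, with 8 for the replicate block. The causes were not tested.

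Same-numbered arrays deviated together in 60 of 84 pairs above 0.1 (median correlation 0.205), and in all 3 pairs for 6 of 13 comparisons, so whether the numbers pair the arrays is not settled. For different numbers the median was -0.107. Deviations were taken from each group's own mean, which ties this value to the first, so it is no separate comparison. No called value changed direction under any alternative or with any array left out. Setting medians equal or quantile normalisation moved the median of all genes by at most 0.03. Fits of only the groups compared were not run for comparisons that use all 8 groups. GINS4, near the filter and with the widest spread, limits what its intervals can show.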

Other observations

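Among the pathway genes, DBF4, which encodes the activating subunit of the CDC7 kinase, differed in the size of its siRNA effect between times, and it was chosen after its values were seen. HER2 siRNA lowered DBF4 at both times: the log2 difference was -1.12 with vehicle and -1.19 with estrogen at 4 h, and -1.77 and -1.76 at 24 h. The effect at 24 h minus that at 4 h was -0.61 ± 0.15 (limma adjusted p = 0.0257). The estrogen response with control siRNA was larger at 24 h than at 4 h for CDC45 (0.92, adjusted p = 0.0111), TIPIN, a fork protection factor (0.57, adjusted p = 0.0179), POLE4, a subunit of DNA polymerase epsilon (0.46, adjusted p = 0.0159), and GMNN, an inhibitor of CDT1 (0.56, adjusted p = 0.0224). These too were chosen after their values were seen.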
